A study of Mus musculus with 6 samples.

Results

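The genes described here are the cytochrome P450 genes measured in fat of NOD mice, which develop autoimmune diabetes with age. They were chosen by name from the array annotation, as genes whose symbol starts with Cyp followed by a number, a letter and a number, with Cyp51 left out. Probe sets naming 1 gene were used, and of several for a gene the one with the highest mean signal over the arrays. This gave 72 genes, of 18193 genes measured in all. Total RNA of fat was hybridised to 6 Affymetrix arrays, 2 for each of 3 groups. The AAT-treated group was NOD mice that had received alpha-1-antitrypsin (AAT), an inhibitor of serine proteases in plasma, and had stably reverted to insulin independence. The diabetic group was NOD mice whose blood glucose had stayed over 300 mg/dl on 3 days in a row. The normoglycemic group was NOD females of 10 weeks with normal glucose. Age and sex are given for the normoglycemic group alone, and nothing says which fat depot was taken, for how long AAT was given or whether an array held 1 mouse or a pool. Separate mice are not stated for the 2 arrays of a group either, so the p-values reflect a spread that may be technical.

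Cytochromes P450 are haem enzymes that insert an oxygen atom from molecular oxygen into a substrate, using electrons passed on by cytochrome P450 reductase in the endoplasmic reticulum or by ferredoxin in mitochondria. Members of the family oxidise drugs, solvents and pollutants, convert arachidonic acid to epoxides, hydroxylate fatty acids at their far end, and make or degrade steroids, bile acids, retinoic acid and vitamin D. Liver, lung, kidney, gut and adrenal are the classic sites of expression, and fat is known for Cyp2e1 in its adipocytes and Cyp1b1 in its precursor and stromal cells.

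Values are MAS5 signals on a linear scale, scaled on each array to a trimmed mean of 500. A signal depends on the probe set as well as on the RNA, so signals are compared between arrays for a gene and not between genes. The median signal of an array ranged from 175.7 to 272. Quality differed between arrays. For the beta-actin control, the 3′ probe set over the 5′ one, which reflects RNA integrity and labelling length, gave 9.08 and 5.87 in AAT-treated fat, 15.2 and 15.5 in diabetic fat, and 3.63 and 4.30 in normoglycemic fat. The mean signal of the 18 hybridisation control probe sets was 86286 on AAT-treated 2 and 128547 on normoglycemic 1, the 2 highest, while the other 4 arrays had 25159 to 48494. All 14 adipocyte markers that could be tested were present, none of them at or below the control signal on every array. Their summed signal was 322652 and 375916 in AAT-treated fat, 293655 and 491818 in diabetic fat, and 586816 and 456791 in normoglycemic fat.

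Of the 72 P450 genes, 42 had a mean signal above the filter of 164, the 40th percentile of all probe set means, and were tested. The other 30 were not. Just inside the filter lay Cyp2b19, with a mean signal of 165, and Cyp8b1, with 164.6. Just outside it lay Cyp39a1, with 162, and Cyp2d9, with 156. As a second yardstick, the strongest of 27 probe sets for bacterial control transcripts read 74.9 and 100.5 on the AAT-treated arrays, 105 and 102 on the diabetic arrays, and 265 and 101 on the normoglycemic arrays. Of the 42 tested genes 27 exceeded that level on all 6 arrays. None of the 30 untested genes did, and 10 of them exceeded it on no array. Those below the filter included all 3 enzymes of vitamin D metabolism (Cyp2r1, Cyp24a1 and Cyp27b1), named after their values were seen, and 13 of 25 xenobiotic enzymes.

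Cyp2e1, which oxidises ethanol, acetone and small solvents and in rodent liver is known to go up in fasting and diabetes, gave 40005 and 48814 in AAT-treated fat, 46150.5 and 49727 in diabetic fat, and 129179 and 62768 in normoglycemic fat. Both normoglycemic arrays lay above all the others, and the AAT-treated and diabetic arrays overlapped. Diabetic fat was lower than normoglycemic fat by a log2 difference of −0.91 ± 0.49 (SE), and AAT-treated fat by −1.03 ± 0.49, with limma adjusted p of 0.563 and 0.923 (Benjamini-Hochberg over all genes). All log2 differences are of log2(signal + 74.5), which understates those of weak genes. Without normoglycemic 1, the array with the highest Cyp2e1 signal, the differences were −0.39 and −0.51. In bulk fat, fewer cells of a type and less RNA per cell cannot be told apart. The summed adipocyte signal above was also highest on normoglycemic 1, while diabetic 2 had more of it than normoglycemic 2. By gene, 9 of the 14 adipocyte markers were higher and 5 lower in diabetic than in normoglycemic fat. In AAT-treated fat 1 was higher and 13 were lower than in normoglycemic fat. The part of adipocyte RNA in the Cyp2e1 values was not tested.

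Cyp1b1 oxidises oestradiol, retinoids and polycyclic hydrocarbons and is a known target of the aryl hydrocarbon receptor. Its signal was 554 and 1081 in AAT-treated fat, 387 and 273 in diabetic fat, and 383 and 327 in normoglycemic fat. Both AAT-treated arrays lay above the other 4, while diabetic and normoglycemic arrays overlapped. The log2 difference was 1.09 ± 0.40 between AAT-treated and diabetic fat and 0.99 ± 0.40 between AAT-treated and normoglycemic fat. Neither passed, with limma adjusted p of 0.961 and 0.923. A second probe set of Cyp1b1 above the filter read 59.6 and 248 in AAT-treated fat, 114 and 199 in diabetic fat, and 339 and 30.3 in normoglycemic fat, so that its groups overlapped in all comparisons. With both probe sets averaged, the differences were 0.48 and 0.49, and without AAT-treated 2 they were 0.65 and 0.55. All 11 smooth muscle markers were also higher on both AAT-treated arrays than on the other 4, with a summed signal of 76366 and 120538 in AAT-treated fat, 19287 and 14655 in diabetic fat, and 10512 and 39140 in normoglycemic fat. The 10 mesothelial markers summed to 8793 and 16805 in AAT-treated fat, 7341 and 6368 in diabetic fat, and 6677 and 4283 in normoglycemic fat. Of these 10, 4 were higher on both AAT-treated arrays than on the other 4. The part of smooth muscle or mesothelial RNA in the Cyp1b1 values was not tested.

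Cyp2s1, an enzyme of epithelia outside the liver, gave 1096 and 500.1 in AAT-treated fat, 869 and 629 in diabetic fat, and 432 and 372 in normoglycemic fat. Both normoglycemic arrays were the lowest. The log2 difference against normoglycemic fat was 0.79 ± 0.41 for AAT-treated and 0.78 ± 0.41 for diabetic fat, with limma adjusted p of 0.923 and 0.554. Without AAT-treated 1 the first was 0.27. The array held 15 macrophage markers, 14 of them above the filter. All 15 summed to 23022 and 15224 in AAT-treated fat, 22482 and 36996 in diabetic fat, and 10517 and 10350 in normoglycemic fat. Itgam was at or below the bacterial control on every array. Of the 14 above the filter, 11 were higher in AAT-treated and 12 in diabetic than in normoglycemic fat. The 11 fibroblast and preadipocyte markers, none of them at or below that control on every array, summed to 72824 and 66267 in AAT-treated fat, 50161 and 88205 in diabetic fat, and 44596 and 42115 in normoglycemic fat. Both sums were therefore lowest on the normoglycemic arrays, as Cyp2s1 was, and their part in its values was not tested.

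Cyp2d22, of the drug-oxidising Cyp2d family, gave 1312 and 683 in AAT-treated fat, 848 and 867 in diabetic fat, and 363 and 749.6 in normoglycemic fat. Diabetic arrays lay above both normoglycemic ones (0.63 ± 0.43, limma adjusted p 0.622). AAT-treated arrays overlapped with them (0.77 ± 0.43 over normoglycemic fat, limma adjusted p 0.923). A second Cyp2d22 probe set above the filter, at 914 and 297, 538 and 426, and 174 and 456 on the AAT-treated, diabetic and normoglycemic arrays, had differences of the same sign in all 3 comparisons. Without normoglycemic 1, the array with the lowest Cyp2d22 signal, the differences from normoglycemic fat were 0.31 for AAT-treated and 0.18 for diabetic fat.

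Among the other xenobiotic genes, Cyp2d13 gave 172 and 254 in AAT-treated fat, 286 and 365 in diabetic fat, and 767 and 329 in normoglycemic fat. Both AAT-treated arrays were the lowest, at log2 differences of −0.48 ± 0.45 against diabetic and −1.03 ± 0.45 against normoglycemic fat (limma adjusted p 0.991 and 0.923). The first was −0.27 without AAT-treated 1 and the second −0.50 without normoglycemic 1. Cyp2f2, which activates naphthalene in club cells of the lung, gave 298 and 303 in AAT-treated fat, 169.7 and 229 in diabetic fat, and 614 and 229 in normoglycemic fat. AAT-treated arrays lay above the diabetic ones, at 0.46 ± 0.48, and diabetic and normoglycemic arrays overlapped, at −0.75 ± 0.48 (limma adjusted p 0.997 and 0.610). Without normoglycemic 1 the difference from normoglycemic fat was −0.15. Of the role as a whole, 5 of the 12 tested xenobiotic genes were higher and 7 lower in diabetic than in normoglycemic fat, and 7 were higher and 5 lower in AAT-treated than in diabetic fat. None passed the adjusted threshold.

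**Figure D1:**
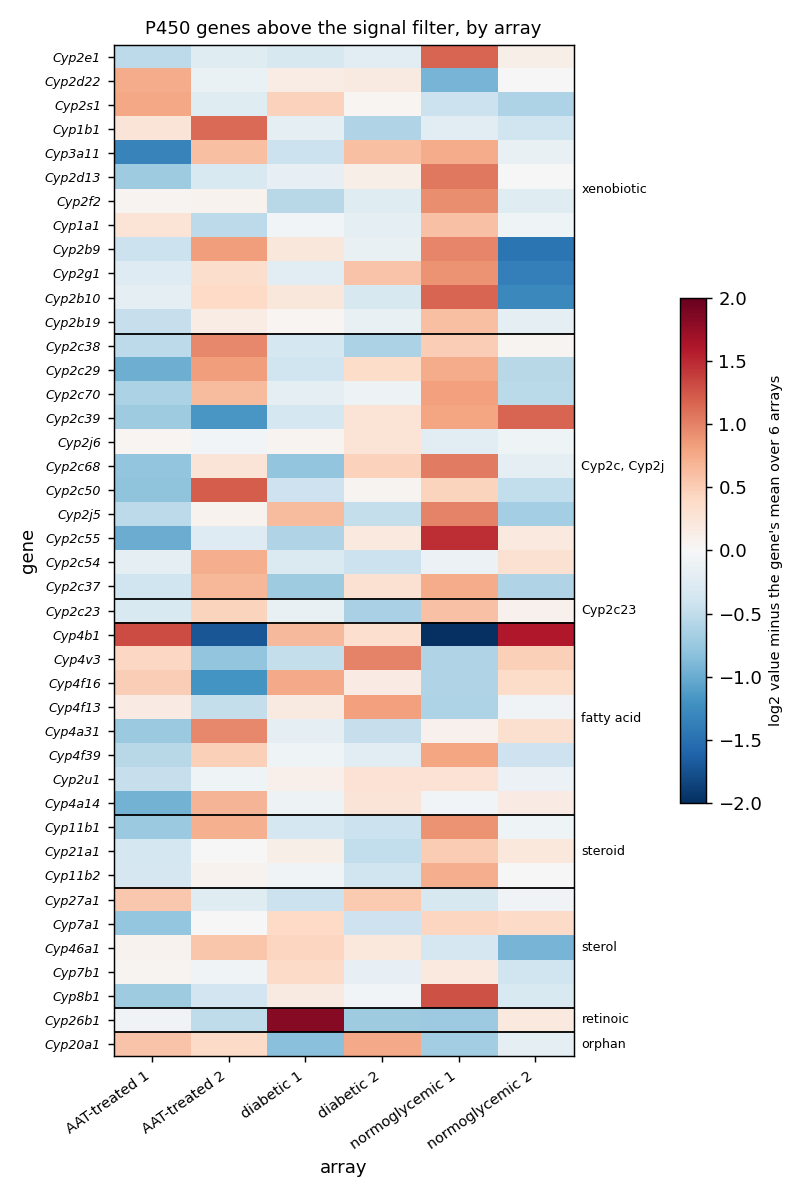
Heat map of the 42 tested P450 genes (rows, grouped by role and ordered within a role by mean signal) on the 6 arrays (columns). Colour is log2(signal + 74.5) minus the gene's mean over the 6 arrays, red for higher and blue for lower, with the scale ending at 2 in either direction. The column of normoglycemic 1 is mostly red, holding the highest value of 22 genes, and Cyp4b1 is at its lowest on AAT-treated 2 and normoglycemic 1.

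The Cyp2c and Cyp2j enzymes convert arachidonic acid to epoxides that relax vessels, and 11 of their 15 genes were tested. In mice many Cyp2c genes lie in 1 cluster, and Cyp2c29, Cyp2c39 and Cyp2c38 are neighbours on chromosome 19. The 250 bases before 1 start of each of these 3 genes are shown (GRCm38.p6, RefSeq). They are printed because the genes are neighbours of the same family. Whether the windows bear on the signals of these genes was not tested. Capitals mark the letters TATAAA, searched on both strands and found in 12.4% of 32851 promoter windows of that length and in 32.8% of 58 windows of P450 genes.
Cyp2c39 (chr19:39347096-39347345, plus strand): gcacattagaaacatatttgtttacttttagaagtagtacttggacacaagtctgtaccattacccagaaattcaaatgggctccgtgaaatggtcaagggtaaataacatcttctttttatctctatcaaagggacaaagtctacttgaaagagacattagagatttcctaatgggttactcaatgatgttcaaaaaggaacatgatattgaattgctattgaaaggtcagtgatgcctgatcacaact
Cyp2c38 (chr19:39463076-39463325, minus strand): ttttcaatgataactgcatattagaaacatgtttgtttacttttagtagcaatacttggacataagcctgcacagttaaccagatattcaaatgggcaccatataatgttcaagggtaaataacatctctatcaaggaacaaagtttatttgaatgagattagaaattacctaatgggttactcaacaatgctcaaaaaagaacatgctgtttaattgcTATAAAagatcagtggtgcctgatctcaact
Cyp2c29 (chr19:39286835-39287084, plus strand): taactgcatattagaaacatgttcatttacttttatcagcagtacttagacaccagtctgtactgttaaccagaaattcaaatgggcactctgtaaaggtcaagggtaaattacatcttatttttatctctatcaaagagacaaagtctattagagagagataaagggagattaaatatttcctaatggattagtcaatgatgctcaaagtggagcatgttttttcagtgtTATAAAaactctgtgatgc
TATAAA began 31 bases before the start in Cyp2c38 and 19 in Cyp2c29, and those letters were not in the Cyp2c39 window shown. Cyp2c39 had 2 windows and only 1 is shown here, while Cyp2c38 and Cyp2c29 had 1 each. Aligned pairwise, the Cyp2c39 window shown was 75.8% identical to that of Cyp2c38 and 74.1% to that of Cyp2c29, while Cyp2c38 and Cyp2c29 shared 68.8%.

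Cyp2c39, an enzyme reported in mouse liver to hydroxylate retinoic acid, gave 89.2 and 45.9 in AAT-treated fat, 137 and 251 in diabetic fat, and 388 and 525 in normoglycemic fat. The groups did not overlap in any of the 3 comparisons: AAT-treated arrays were the lowest, diabetic arrays lay between, and normoglycemic arrays were the highest. Both AAT-treated signals and that of diabetic 1 lay below the signal filter, and the normoglycemic signals carried the Cyp2c39 mean over it. The gene was thus tested because of its high normoglycemic signals, and the part of this selection in its differences from normoglycemic fat was not tested. The log2 difference was −1.0 ± 0.49 for diabetic against normoglycemic, −0.90 ± 0.49 for AAT-treated against diabetic, and −1.91 ± 0.49 for AAT-treated against normoglycemic fat. None passed, with limma adjusted p of 0.540, 0.961 and 0.868. With 1 array at a time left out they ranged between −1.32 and −0.69, between −1.22 and −0.59, and between −2.13 and −1.69. AAT-treated 2 had the lowest Cyp2c39 signal, below the strongest bacterial control on that array, and Cyp2c39 had 1 probe set, so no second reading of the gene was at hand. Cyp2j6, named after its values were seen, also had groups that did not overlap in any comparison, at 247 and 226 in AAT-treated fat, 249.9 and 302 in diabetic fat, and 192 and 218 in normoglycemic fat. Its diabetic arrays were the highest and its normoglycemic arrays the lowest, by differences smaller than their SE of 0.41. Its second probe set above the filter, at 257 and 30.2, 24.3 and 359, and 125 and 214 on the AAT-treated, diabetic and normoglycemic arrays, had overlapping groups in all 3 comparisons.

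Its neighbour Cyp2c38, an arachidonic acid epoxygenase, gave 416 and 1301 in AAT-treated fat, 478 and 383 in diabetic fat, and 926 and 665 in normoglycemic fat. Diabetic arrays were below both normoglycemic ones (−0.77 ± 0.49, limma adjusted p 0.608), and AAT-treated arrays overlapped with both other groups. AAT-treated minus diabetic was 0.71 ± 0.49 (limma adjusted p 0.985), and −0.035 without AAT-treated 2. Cyp2c29, the other neighbour, chosen here after its values were seen, gave 160.1 and 747 in AAT-treated fat, 277 and 519 in diabetic fat, and 697 and 242 in normoglycemic fat, with all groups overlapping. The 3 neighbours therefore had different array orders.

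Cyp2c55, which oxygenates arachidonic acid in the mouse colon, gave 43.0 and 119.8 in AAT-treated fat, 78.6 and 192 in diabetic fat, and 573 and 191 in normoglycemic fat. AAT-treated arrays were below both normoglycemic ones (−1.46 ± 0.64, limma adjusted p 0.923), and diabetic arrays overlapped with normoglycemic 2 (−1.04 ± 0.64, limma adjusted p 0.60). Without normoglycemic 1 these became −0.81 and −0.40. Cyp2c55 signals on AAT-treated 1 and diabetic 1 were below the strongest bacterial control on those arrays. Both AAT-treated signals and that of diabetic 1 lay below the signal filter. As for Cyp2c39, the normoglycemic signals carried the Cyp2c55 mean over it, and the part of this selection in the differences was not tested. Cyp2c54 gave 154 and 359 in AAT-treated fat, 139.6 and 121 in diabetic fat, and 168 and 249 in normoglycemic fat. AAT-treated arrays lay above diabetic ones (0.62 ± 0.52, limma adjusted p 0.986), and without AAT-treated 2 the difference was 0.16. Cyp2c23, an epoxygenase of the kidney that is not counted among the 15, gave 221 and 418 in AAT-treated fat, 252 and 157 in diabetic fat, and 469.7 and 309 in normoglycemic fat. Diabetic arrays were below normoglycemic ones (−0.73 ± 0.45, limma adjusted p 0.595), and AAT-treated arrays overlapped with both (0.47 ± 0.45 over diabetic fat, limma adjusted p 0.992). The first was −0.48 without normoglycemic 1, and the second 0.10 without AAT-treated 2. Across the role, 10 of 11 Cyp2c and Cyp2j genes were lower in diabetic than in normoglycemic fat, at a median of −0.29. Of all genes 53.6% were lower, at a median of −0.05. Diabetic and normoglycemic arrays did not overlap for 4 of the 11, beside 44.7% of all genes. Cyp2c39, Cyp2c38 and Cyp2c54 were lower and Cyp2j6 higher. In Cyp2c29, and in Cyp2c50, Cyp2c70 and Cyp2j5, named after their values were seen, normoglycemic 1 lay above both diabetic arrays and normoglycemic 2 below both.

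**Figure D2:**
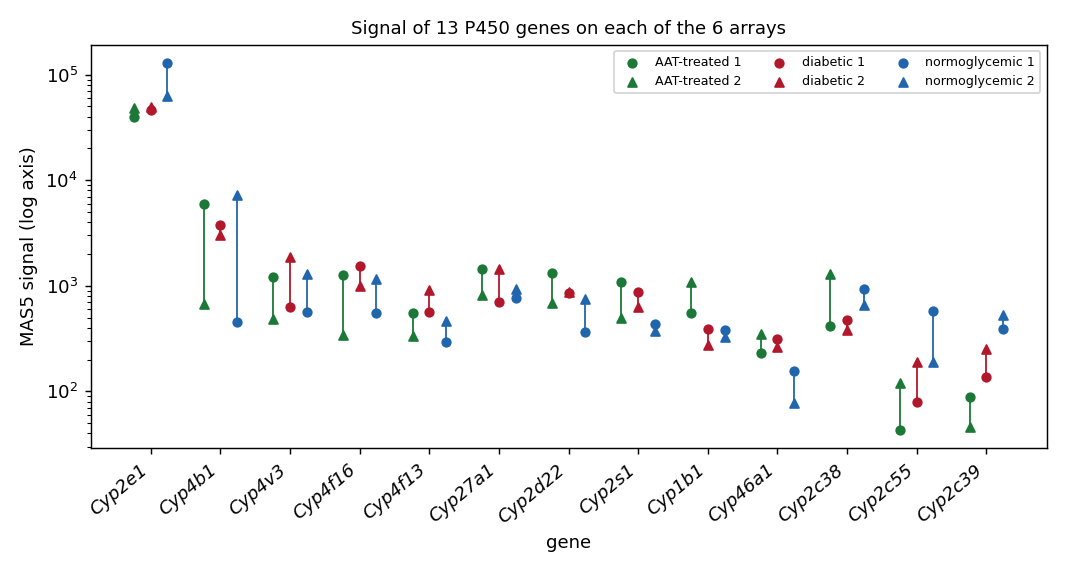
MAS5 signal (log axis) of 13 P450 genes, with AAT-treated, diabetic and normoglycemic arrays from left to right for each gene, circles for array 1, triangles for array 2, and a line joining the 2 arrays of a group. Among these 13 all 3 groups were apart in Cyp2c39, with the AAT-treated arrays lowest at 89.2 and 45.9, and in Cyp4b1 the 2 arrays of a group were farthest apart.

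Cyp4 enzymes hydroxylate fatty acids and leukotrienes at or near the far end of the chain. Cyp4b1, a fatty acid hydroxylase best known from lung, gave 5947 and 669 in AAT-treated fat, 3731 and 3007 in diabetic fat, and 458 and 7317 in normoglycemic fat. Its highest and lowest arrays were both normoglycemic, 16.0-fold apart, so the groups overlapped in every comparison. Cyp4v3, the mouse counterpart of human CYP4V2, gave 1225 and 489.8 in AAT-treated fat, 625 and 1864 in diabetic fat, and 568 and 1288 in normoglycemic fat. Cyp4f16 gave 1264 and 342 in AAT-treated fat, 1529 and 992 in diabetic fat, and 554 and 1158 in normoglycemic fat. For Cyp4b1, Cyp4v3 and Cyp4f16 alike, AAT-treated 2 and normoglycemic 1 were the 2 lowest arrays.

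Cyp4f13 gave 552 and 331 in AAT-treated fat, 561 and 914 in diabetic fat, and 291 and 463 in normoglycemic fat. Both diabetic arrays were above the rest, at 0.84 ± 0.41 over normoglycemic fat, with AAT-treated fat at −0.65 ± 0.41 against diabetic fat (limma adjusted p 0.536 and 0.968). Without diabetic 2 they were 0.52 and −0.33. Cyp4f16 differed by 0.57 ± 0.58 between diabetic and normoglycemic fat and by −0.81 ± 0.58 between AAT-treated and diabetic fat (limma adjusted p 0.731 and 0.986), the first being 0.086 without normoglycemic 1 and the second 0.033 without AAT-treated 2. Cyp2u1, which hydroxylates long-chain fatty acids, gave 125 and 183 in AAT-treated fat, 220.1 and 259.8 in diabetic fat, and 261 and 179 in normoglycemic fat. AAT-treated arrays lay below diabetic ones (−0.47 ± 0.46, limma adjusted p 0.997), and without AAT-treated 1 the difference was −0.28. A second Cyp2u1 probe set above the filter gave 22.4 and 214, 228 and 74.7, and 373 and 143 in that group order. Its groups overlapped in all comparisons. Its diabetic minus normoglycemic difference was −0.56, beside 0.11 for the chosen probe set. Of the 8 tested fatty acid hydroxylases, 6 were higher and 2 lower in diabetic than in normoglycemic fat, and 2 were higher and 6 lower in AAT-treated than in diabetic fat, with 2 non-overlapping in each, beside 44.7% and 33.8% of all genes.

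The 2 arrays on which those Cyp4 genes were weakest also stood apart in endothelial markers. Of 10 endothelial markers, 9 had their 2 lowest signals on AAT-treated 2 and normoglycemic 1, and none was at or below the bacterial control on every array. The summed endothelial signal was 30389 and 6440 in AAT-treated fat, 20078 and 13232 in diabetic fat, and 3633 and 31447 in normoglycemic fat, the same order of the 6 arrays as for Cyp4b1. These are the 2 arrays with the strongest hybridisation controls as well. Below all of the other 4 arrays on both stood 5 P450 genes (Cyp4b1, Cyp4v3, Cyp4f13, Cyp4f16 and Cyp2d22), which is 11.9% of the 42, beside 13.7% of all 13043 genes tested. Above all of the other 4 on both stood 13 genes, or 31.0%, beside 20.6% of all genes. The part of endothelial RNA or of the hybridisation in these values was not tested.

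The sterol enzymes had 5 of 6 genes tested. Cyp27a1, the mitochondrial enzyme that hydroxylates the cholesterol side chain, gave 1451 and 820.4 in AAT-treated fat, 707 and 1449 in diabetic fat, and 771 and 928 in normoglycemic fat. All groups overlapped, and AAT-treated minus normoglycemic was 0.34 ± 0.42 (limma adjusted p 0.931), or −0.041 without AAT-treated 1. Cyp46a1, which hydroxylates cholesterol in neurons, gave 231 and 349.9 in AAT-treated fat, 316 and 261 in diabetic fat, and 157 and 77.3 in normoglycemic fat. Both normoglycemic arrays were the lowest, at log2 differences of 0.94 ± 0.47 for AAT-treated and 0.95 ± 0.47 for diabetic against normoglycemic fat (limma adjusted p 0.923 and 0.540). Its normoglycemic signals were below the strongest bacterial control on their arrays, and its signals on the other 4 arrays were above it. The macrophage and fibroblast marker sums given above were also lowest on both normoglycemic arrays, and their part in the Cyp46a1 values was not tested.

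Cyp7a1, the rate-limiting enzyme of bile acid synthesis, gave 113 and 244 in AAT-treated fat, 348 and 166 in diabetic fat, and 359 and 342 in normoglycemic fat. AAT-treated arrays were below normoglycemic ones (−0.80 ± 0.48, limma adjusted p 0.923), and without AAT-treated 1 the difference was −0.41. Cyp8b1, which sets the ratio of cholic to other bile acids, gave 56.4 and 89.5 in AAT-treated fat, 169 and 132 in diabetic fat, and 442 and 98.3 in normoglycemic fat. AAT-treated minus normoglycemic was −1.03 ± 0.66 (limma adjusted p 0.923), and −0.24 without normoglycemic 1. Both AAT-treated signals and that of normoglycemic 2 were below the strongest bacterial control on their arrays. These signals and that of diabetic 2 also lay below the signal filter, and normoglycemic 1 carried the Cyp8b1 mean over it. The part of this selection in the Cyp8b1 difference was not tested. Both enzymes are classic liver genes. The array held 19 hepatocyte markers, 14 of them above the filter. All 19 summed to 7660 and 12153 in AAT-treated fat, 7222 and 16588 in diabetic fat, and 9748 and 9561 in normoglycemic fat. The groups overlapped, and Fgb was at or below the bacterial control on every array. The part of liver RNA in the bile acid enzymes was not tested.

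Cyp26b1, which breaks down retinoic acid, gave 609 and 428 in AAT-treated fat, 2447 and 365 in diabetic fat, and 357 and 744 in normoglycemic fat. The high value was on diabetic 1 alone, and the groups overlapped. Diabetic minus normoglycemic was 0.82 ± 0.73 and AAT-treated minus diabetic −0.84 ± 0.73 (limma adjusted p 0.694 and 0.986), and without diabetic 1 they turned to −0.44 and 0.42. Cyp20a1, a P450 with no known substrate, gave 1237 and 1079 in AAT-treated fat, 421 and 1419 in diabetic fat, and 472 and 706 in normoglycemic fat. AAT-treated arrays were above normoglycemic ones (0.91 ± 0.51, limma adjusted p 0.923), and overlapped with the widely spaced diabetic arrays (0.52 ± 0.51, limma adjusted p 0.995), where the difference was −0.28 without diabetic 1. Of 5 steroid hormone genes 3 were tested, the adrenal enzymes Cyp11b1, Cyp11b2 and Cyp21a1, named after their values were seen. All 3 were lower on both diabetic than on both normoglycemic arrays, at a median of −0.60, beside 24.5% of all genes that were lower without overlap, and none passed the test. Of 10 tested adrenal and gonad markers 8 were lower in diabetic fat as well, beside 53.6% of all genes. All 12 on the array summed to 8980 and 9342 in AAT-treated, 10027 and 9576 in diabetic and 12964 and 10782 in normoglycemic fat. That sum was lowest on the AAT-treated arrays. All 3 enzymes were higher in AAT-treated than in diabetic fat, with overlapping arrays, at a median of 0.10. Among the 12, Hsd3b1 and Amh were at or below the bacterial control on every array. The part of adrenal or gonad RNA was not tested.

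For the family as a whole between diabetic and normoglycemic fat, 0 of the 42 genes passed the adjusted threshold of 0.05 by limma, where 0.0% of all 13043 genes passed. At an unadjusted p under 0.05 there were 0 P450 genes, beside 9.9% of all genes. Of the 42, 17 were higher and 25 lower, beside 46.4% and 53.6% of all genes. Their median log2 difference was −0.19, beside −0.05 for all genes. Groups did not overlap for 14 of the 42, or 33.3%, beside 44.7% of all genes. Of these, 5 were higher and 9 lower, beside 20.2% and 24.5% of all genes. That share of the P450 genes was below the background. The median was 0.13 without normoglycemic 1 and −0.68 without normoglycemic 2. Leaving out normoglycemic 2 also brought 5 genes to an unadjusted p under 0.05.

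Between AAT-treated and diabetic fat, again 0 of 42 genes passed by limma, beside 0.0% of all genes. Cyp1b1 was the 1 gene at an unadjusted p under 0.05, beside 4.77% of all genes. Of the 42, 20 were higher and 22 lower, beside 51.2% and 48.8% of all genes. Their median was −0.03, beside 0.01 for all genes. Groups did not overlap for 9, or 21.4%, beside 33.8% of all genes. Of these, 3 were higher and 6 lower, beside 17.9% and 15.9% of all genes. Leaving out AAT-treated 1 gave a median of 0.21, leaving out AAT-treated 2 gave −0.30, and 4 genes reached an unadjusted p under 0.05 without AAT-treated 1 and none without AAT-treated 2.

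Between AAT-treated and normoglycemic fat 0 of 42 genes passed by limma, beside 0.0% of all genes, and 2 (Cyp1b1 and Cyp2c39) had an unadjusted p under 0.05, beside 5.13% of all genes. There were 16 genes higher and 26 lower, beside 48.0% and 52.0% of all genes. Their median was −0.16, beside −0.03 for all genes. Groups did not overlap for 12, or 28.6%, beside 32.1% of all genes. Of these, 5 were higher and 7 lower, beside 16.0% and 16.1% of all genes. Leaving out AAT-treated 2 moved the median to −0.59 and leaving out normoglycemic 2 moved it to −0.64, while it was 0.070 without AAT-treated 1 and near 0 without normoglycemic 1. The 3 comparisons share arrays pairwise, so their values for a gene are not independent of each other.

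**Figure D3:**
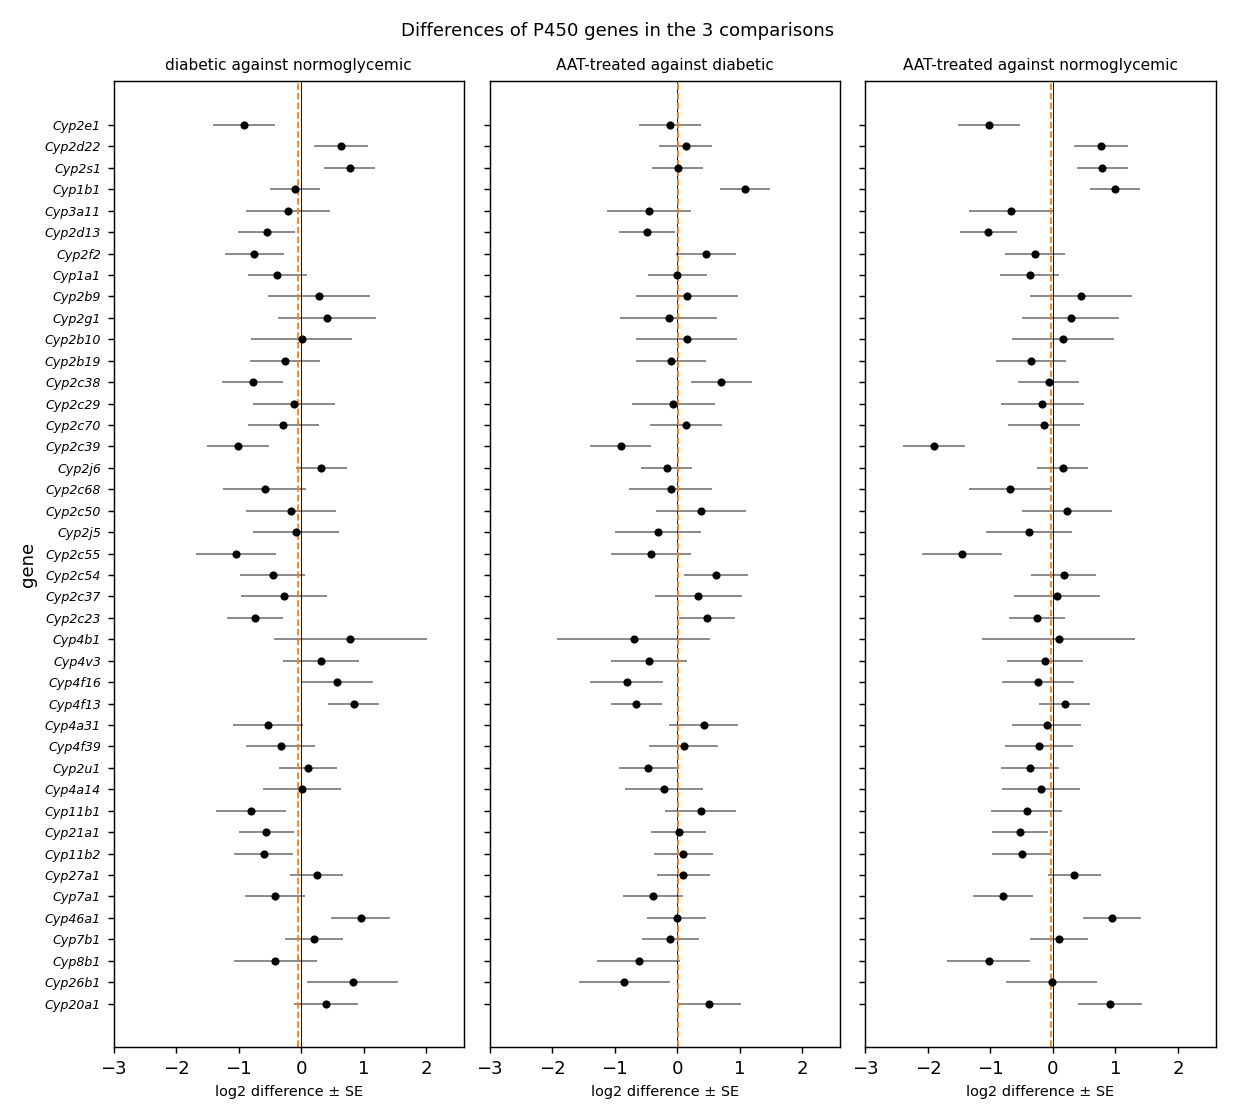
Log2 difference of each of the 42 tested P450 genes (rows) in the 3 comparisons (panels), with bars of ± SE from limma and n = 2 arrays per group. The dashed line is the median of all 13043 genes, and 0 of 42 genes passed the adjusted threshold in each panel.

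The 2 arrays of a group lay farther apart in P450 genes than in the median gene tested. The median absolute log2 difference between the 2 arrays of a group was 0.77 in AAT-treated fat, 0.42 in diabetic fat and 0.90 in normoglycemic fat for the 42 genes, beside 0.48, 0.36 and 0.46 for all genes tested. Among the 18 P450 genes with a mean signal above 317 this difference was 1.11, 0.42 and 0.92, beside 0.44, 0.35 and 0.41 for all genes in that range. Among the 24 weaker ones it was 0.61, 0.42 and 0.76, beside 0.63, 0.40 and 0.64. The median standard error was 0.53 for P450 genes and 0.41 for all genes. Normoglycemic 1 held the highest signal of 22 of 42 genes, or 52.4%, beside 29.2% of all genes. AAT-treated 2 held that of 8, or 19%, near the 20.4% of all genes.

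Which array was highest depended on signal. Among the 24 P450 genes at or below a mean signal of 317, the 60th percentile of all probe set means, 21 (87.5%) had their highest array in AAT-treated 2 or normoglycemic 1, beside 69.2% of the 3182 genes in the same range. Among the 18 stronger ones 9 did (50.0%), beside 43.3% of 9861 genes. Leaving both arrays out, after seeing the data, gave medians of −0.30 for AAT-treated against diabetic, −0.26 for AAT-treated against normoglycemic and 0.13 for diabetic against normoglycemic fat. No P450 gene passed the adjusted threshold in that fit. The part of the stronger hybridisation on these arrays was not tested.

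**Figure D4:**
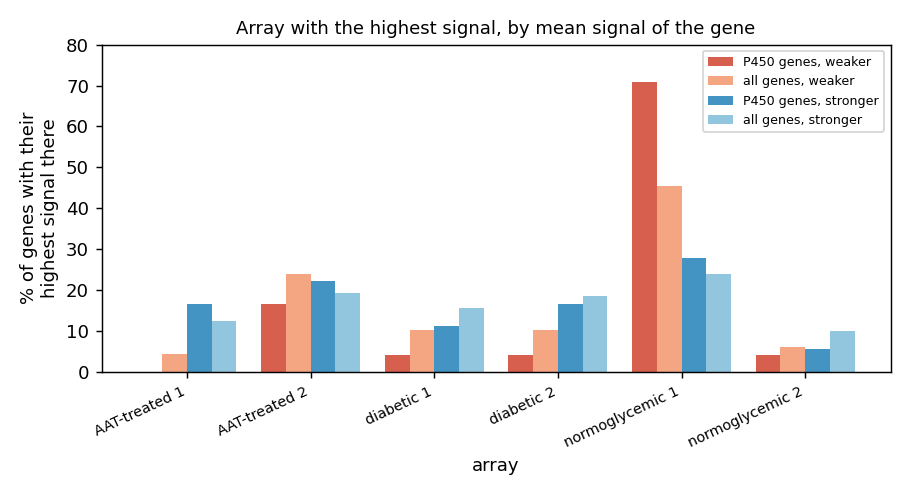
Share of genes (%) with their highest signal on each of the 6 arrays, for P450 genes and all genes tested, split at the 60th percentile of mean signal (weaker at or below it, stronger above it). The tallest bar is the weaker P450 genes on normoglycemic 1, at 70.8% beside 45.3% of all weaker genes.

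Where a gene had more than 1 probe set, the readings often disagreed. The tested P450 genes and the untested ones together had 23 further probe sets, of which 6 were above the filter. Against the chosen probe set, 2 of those 6 had a difference of the same sign for diabetic against normoglycemic fat, 4 for AAT-treated against diabetic fat and 3 for AAT-treated against normoglycemic fat. Cyp20a1 was among the genes that disagreed. Its second probe set gave 160.5 and 193 in AAT-treated fat, 289 and 32.7 in diabetic fat, and 329 and 234 in normoglycemic fat. Of the 42 chosen probe sets 6 carry a suffix for sequence shared with other transcripts (Cyp1a1, Cyp2b10, Cyp2c23, Cyp2f2, Cyp4v3 and Cyp7b1), and others of the Cyp2c, Cyp2b and Cyp4a families may still share signal with near copies.

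P450 enzymes depend on redox partners and haem. In a list of 16 tested genes for these, 9 were higher and 7 lower in diabetic than in normoglycemic fat, and none passed. Cyb5b, an outer mitochondrial membrane cytochrome, gave 1089.7 and 1093 in AAT-treated fat, 2351 and 2874 in diabetic fat, and 1576 and 1458 in normoglycemic fat. Diabetic arrays were the highest, at −1.20 ± 0.30 for AAT-treated against diabetic fat and 0.75 ± 0.30 for diabetic against normoglycemic fat (limma adjusted p 0.676 and 0.492). Alas1, the first enzyme of haem synthesis, gave 1881 and 2948 in AAT-treated fat, 1048 and 2214 in diabetic fat, and 4755 and 2803 in normoglycemic fat. Diabetic arrays were below normoglycemic ones (−1.22 ± 0.45, limma adjusted p 0.490), and without diabetic 1 the difference was −0.70.

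Downstream enzymes conjugate P450 products or hydrolyse their epoxides. Of 24 tested, 5 were higher and 19 lower in diabetic than in normoglycemic fat, at a median of −0.54, and 16 were higher and 8 lower in AAT-treated than in diabetic fat, with none past the threshold in either. Ephx2, the soluble epoxide hydrolase that opens the epoxides made by Cyp2c and Cyp2j enzymes, gave 5141 and 5933 in AAT-treated fat, 7864 and 3533 in diabetic fat, and 13774 and 10314 in normoglycemic fat. Both normoglycemic arrays were the highest, at −1.16 ± 0.43 for diabetic and −1.10 ± 0.43 for AAT-treated against normoglycemic fat (limma adjusted p 0.490 and 0.923). Tpmt, a thiol methyltransferase, gave 482 and 911 in AAT-treated fat, 287 and 377 in diabetic fat, and 1646 and 817 in normoglycemic fat. Diabetic arrays were the lowest (−1.62 ± 0.44 against normoglycemic fat, limma adjusted p 0.459).

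The nuclear receptors that switch P450 genes on or off had 19 tested members, 5 higher and 14 lower in diabetic than in normoglycemic fat, and 11 higher and 8 lower in AAT-treated than in diabetic fat. Pgr, the progesterone receptor, gave 2179 and 1822 in AAT-treated fat, 666 and 376 in diabetic fat, and 464 and 985 in normoglycemic fat, and AAT-treated arrays were the highest (1.84 ± 0.42 over diabetic fat, limma adjusted p 0.60). Among 25 other oxidases, Fmo2, a flavin monooxygenase of lung, gave 2562 and 3786 in AAT-treated fat, 847 and 1389.7 in diabetic fat, and 1507 and 1578 in normoglycemic fat. It too was highest on both AAT-treated arrays (1.46 ± 0.36 over diabetic fat, limma adjusted p 0.654). In steroid, retinoid and eicosanoid lists of 12, 10 and 15 tested genes, as in all these lists, 0 genes passed the adjusted threshold in any comparison.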

How the data were processed

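Per the submitters' processing notes, the deposited intensities are MAS5 signals, linear, 1 for each of 45101 probe sets on each of 6 arrays (no version is stated). Apart from 64 control probe sets, 34945 had 1 gene symbol, 932 several and 9160 none. RefSeq identifiers matched 34741, and 0 symbols differed. The 4 P450 probe sets naming several genes were left out.

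Values were log2(signal + 74.5), the offset being the 25th percentile of all signals. Probe sets with a mean above 164 (40th percentile) were kept, 1 per gene with the highest mean, which left 13043 genes. They were tested in R 4.3.3 with limma 3.58.1 (3 group means, 6 arrays, eBayes with trend, 2-sided, 3 residual and 5.36 prior degrees of freedom) and Benjamini-Hochberg adjustment within each of 3 comparisons. ± is the moderated standard error. An exact permutation test of 2 against 2 arrays cannot go below 0.333, so none was run. The fit was tested on simulated data. Promoter windows came from RefSeq on GRCm38.p6 and were found for 51 of 72 genes.

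The members, gene lists and rules were chosen with earlier results of these data known. Genes named were the 10 of highest mean signal, the 6 of smallest p in each direction of each comparison, those beside the filter, Cyp2c39 and, in lists of other genes, those of smallest p. Alternatives were other offsets, filters, normalization, probe set rules, limma settings, a replicate block and leaving out arrays. The number of arrays limits the precision.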

Additional observations from a re-analysis of the deposited data

How the results depend on the processing

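Across 18 alternatives 0 of the P450 genes tested passed the adjusted threshold in any of the 3 comparisons, the lowest adjusted p of a P450 gene being 0.277 for diabetic against normoglycemic, 0.393 for AAT-treated against diabetic and 0.295 for AAT-treated against normoglycemic fat. Genes at an unadjusted p under 0.05 numbered 0 for diabetic against normoglycemic fat, and 1 without a signal filter, 1 with quantile normalization, 2 without trend, 1 with only the 4 arrays compared, 5 without the 2 arrays of highest hybridisation control signal (chosen after seeing the data) and 0 to 5 with 1 array left out. For AAT-treated against diabetic fat they numbered 1, and 0 with the kept probe sets averaged, 2 without trend and 0 to 4 with 1 array left out. For AAT-treated against normoglycemic fat they numbered 2, and 5 with quantile normalization, 4 without shared-target probe sets, 6 without trend, 4 with robust estimation, 1 with the replicate block and 2 to 6 with 1 array left out. With the replicate block the counts at an unadjusted p under 0.05 were otherwise 0 for diabetic against normoglycemic and 1 for AAT-treated against diabetic fat, and it changed no adjusted call. The labels do not state that replicate numbers pair the samples. Deviations of arrays with the same number correlated at −0.12 (AAT-treated and diabetic), −0.51 (AAT-treated and normoglycemic) and 0.075 (diabetic and normoglycemic) over genes. With 2 arrays a group these correlations cannot decide whether samples were paired. Leaving out 1 array gave medians of −0.68 to 0.13 for diabetic against normoglycemic, −0.30 to 0.21 for AAT-treated against diabetic and −0.64 to 0.070 for AAT-treated against normoglycemic fat.

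Of 78 differences of named or listed genes 8 changed sign under some alternative. Without the 2 arrays of highest hybridisation control signal, AAT-treated minus diabetic was −0.035 for Cyp2c38 and 0.033 for Cyp4f16. Without shared-target probe sets Rdh11, a retinol dehydrogenase, had 0.17 for diabetic minus normoglycemic and −0.30 for AAT-treated minus diabetic. Leaving out 1 array gave −0.44 to 2.09 (Cyp26b1, diabetic minus normoglycemic), −2.10 to 0.42 (Cyp26b1), −0.28 to 1.31 (Cyp20a1), −0.035 to 1.45 (Cyp2c38) and −1.65 to 0.033 (Cyp4f16) for AAT-treated minus diabetic, and −0.041 to 0.73 (Cyp27a1, AAT-treated minus normoglycemic). Where a fit left a group with 1 array, that array was assumed to vary like the other groups. The cause of these shifts was not tested beyond the arrays or probe sets removed.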
